A study of Rattus norvegicus with 17 samples.

Results

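H3K9me3, trimethylation of lysine 9 of histone H3, was mapped by chromatin immunoprecipitation with sequencing (ChIP-seq) at 3 stages of the rat oligodendrocyte lineage, and the 3 peak lists are described here. They held 11079 of the 189320 peaks in the 17 lists of the study: 3149 in oligodendrocyte precursor cells (OPC), 827 in immature oligodendrocytes (iOL) and 7103 in mature oligodendrocytes (mOL). All peaks of the libraries carrying the H3K9me3 label were taken, with no peak left out. The cells were primary cells of wild-type Sprague-Dawley rats, isolated from pup cortex at postnatal day 2. OPC carried the label of mitogen treatment, with PDGF-AA at 10 ng/ml and bFGF at 20 ng/ml in the growth medium. Both oligodendrocyte stages carried the label of T3 treatment, the thyroid hormone, which stood at 15 nM in the differentiation medium beside ciliary neurotrophic factor at 10 ng/ml. The sources used here do not say how many pups a library came from or how long the cells were cultured. Brg1, Olig2, H3K4me3 and H3K27Ac were mapped at the same 3 stages and RNA polymerase II (RNAPII) in OPC and iOL.

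Each stage had 1 H3K9me3 library, so differences between stages are given without a test. Intervals beside percentages are exact Clopper-Pearson 95% intervals over peaks, and they cover counting error only. Peak positions refer to the rat build rn4. With no read numbers in the files the sequencing depth is unknown, and depth and calling threshold both move the length of a list. Positions were not matched to genes, because the gene table at hand is of another assembly, and regions are named by position. The antibody label reads H3K9me3 with the Abcam number ab8896. From general knowledge rather than from these files, that number belongs to an antibody against the monomethylated form of the same lysine, so the identity of the mark rests on the label. The lists hold positions only, so the cell type could not be checked against expressed markers.

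H3K9me3 is written by methyltransferases of the SUV39H and SETDB1 families and is bound by the HP1 proteins, which compact the chromatin that carries it. It is best known from the repeats around centromeres, from transposable elements and from clusters of related genes that are kept silent. The nuclei of oligodendrocytes gain condensed heterochromatin as precursors leave the cell cycle and differentiate. H3K4me3 marks promoters and H3K27Ac active promoters and enhancers, and H3K9me3 is usually found apart from both.

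The first question was how much H3K9me3 each list held and in what form. The iOL list was the shortest and had the narrowest peaks. The mOL list held 2.26 times the peaks of OPC and 8.59 times those of iOL, and OPC held 3.81 times those of iOL. The length covered by peaks was 3.85 Mb (OPC), 0.639 Mb (iOL) and 7.70 Mb (mOL), which is 0.142%, 0.0235% and 0.283% of the placed chromosomes. Median width was 1056 bp in OPC (5th to 95th percentile 691 to 2281), 659 bp in iOL (512 to 1359) and 942 bp in mOL (592 to 1998). OPC peaks were thus the widest at the median, although the mOL list was the longer. Peaks over 2000 bp made up 8.22% of all OPC peaks but 1.81% of those of iOL, with mOL between them at 4.98%. No H3K9me3 peak overlapped another of its own list, and none lay on unplaced sequence.

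The widest peaks showed little of the other targets. In OPC they lay at chr9:1069279-1076586 (7308 bp), chr17:49584711-49591497 (6787 bp) and chr1:243639788-243645775 (5988 bp). None of these OPC peaks met H3K9me3 of a later stage. In iOL they lay at chr17:49608419-49612651 (4233 bp), chrX:130274368-130278237 (3870 bp) and chr12:16544765-16548605 (3841 bp). The X peak was also called in OPC and the chromosome 12 peak also in mOL. In mOL they lay at chr15:40037645-40046962 (9318 bp), chrX:129466128-129474607 (8480 bp) and chr19:36278286-36285942 (7657 bp). The chromosome 19 peak was the only one of these 9 that met H3K9me3 at every stage, and the chromosome 15 peak spanned 3 separate iOL peaks. Among the 9, H3K27Ac met the mOL peak on chromosome 15 alone, with 2 iOL and 1 mOL H3K27Ac peaks, and none met H3K4me3 or Brg1. The OPC peak on chromosome 1 met an mOL Olig2 peak, and the mOL peak on the X an OPC RNAPII peak.

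Sharing of H3K9me3 places between stages was then set against peak width. Of the 9540 regions made by joining the 3 lists, 5816 were called in mOL alone, 2010 in OPC alone and 404 in iOL alone, and 162 at all 3 stages. Wide peaks were shared more often in each of the 6 directions. From OPC to mOL, 49.3% (45.8 to 52.9) of the widest 25% of OPC peaks met an mOL peak, against 21.0% (18.2 to 24.0) of the narrowest 25%. From mOL to OPC the shares were 32.5% (30.3 to 34.7) and 5.30% (4.30 to 6.44). From iOL to mOL they were 68.0% (61.1 to 74.3) and 25.2% (19.5 to 31.7). A wide peak also meets more places than a narrow one whatever its position, and this was not separated here. The median width of OPC peaks was 985 bp where no other stage had a peak, 1161 bp where 1 did and 1472 bp where both did. The same order held in iOL, with 611, 714 and 787 bp, and in mOL, with 899, 1214 and 1655 bp.

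**Figure D1:**
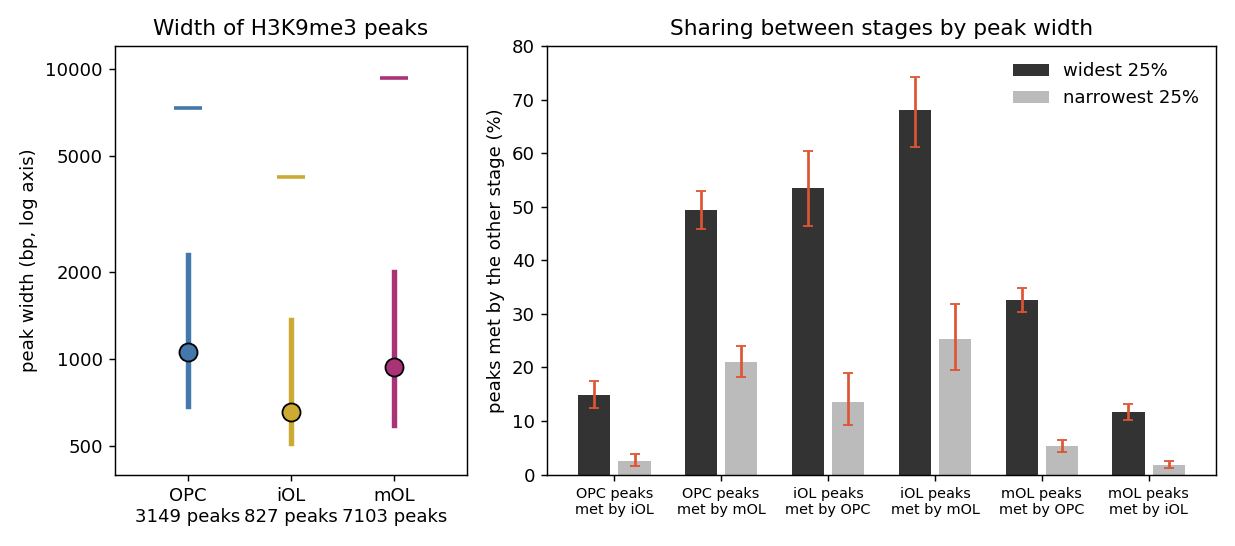
Left, width of H3K9me3 peaks at each stage on a log axis: circles are medians, vertical bars run from the 5th to the 95th percentile and dashes are the widest peak. Right, percentage of the widest and narrowest 25% of a stage's peaks that met a peak of another stage, with 95% binomial intervals. The dark bar is above the grey one in every pair, for example 49.3% against 21.0% for OPC peaks met by mOL.

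Because the lists differ so much in length, the 827 widest peaks of each stage were also compared. OPC and mOL then shared most: 29.3% of OPC peaks met mOL and 29.6% of mOL peaks met OPC. For iOL the 827 are the whole list, and for OPC and mOL they are only the widest peaks. Width was thus not matched, and wide peaks were shared more often, so this order may follow from the choice of peaks. Between OPC and iOL the shares were 14.5% and 16.1%, and between iOL and mOL 19.7% and 16.8%. With whole lists, 27.7% (24.7 to 30.9) of iOL peaks met OPC and 44.4% (41.0 to 47.8) met mOL, which puts iOL nearer to mOL, the longer list. Peaks near to each other without overlap raised these shares in every direction. Counting peaks up to 10 kb apart, 41.9% (40.2 to 43.7) of OPC peaks had an mOL peak, against 34.4% (32.7 to 36.1) with true overlap, and 9.46% (8.46 to 10.5) had an iOL peak, against 6.95% (6.09 to 7.90). For iOL peaks the shares were 53.0% (49.5 to 56.4) with mOL and 32.6% (29.5 to 36.0) with OPC. For mOL peaks they were 20.6% (19.7 to 21.6) with OPC, against 15.5% (14.7 to 16.4), and 8.28% (7.65 to 8.94) with iOL, against 4.91% (4.42 to 5.44). At up to 100 kb, 67.9% (66.3 to 69.6) of OPC peaks had an mOL peak.

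Most H3K9me3 peaks had no other peak of their list within 10 kb. In OPC 12.0% (10.9 to 13.2) of peaks had another peak of the same list within 10 kb. The share was 10.8% (8.73 to 13.1) for iOL and 20.3% (19.4 to 21.3) for mOL. The active marks, measured in the same way, were far more closely spaced: 64.2% (63.5 to 64.9), 66.4% (65.8 to 67.1) and 73.4% (73.0 to 73.9) of H3K27Ac peaks and 56.7% (55.8 to 57.6), 52.0% (51.0 to 52.9) and 69.2% (68.5 to 69.9) of H3K4me3 peaks in OPC, iOL and mOL. Those lists are also longer, and list length was not matched between marks. The share rises with list length, and its value for peaks scattered evenly was not computed. A stretch of 1 Mb held on average 1.15 (OPC), 0.303 (iOL) or 2.60 (mOL) H3K9me3 peaks. At such densities an evenly scattered peak would seldom have a neighbour within 10 kb. H3K9me3 peaks thus lay closer together than an even scatter of their number would give, by a factor that was not computed. The cause was not tested. With the 827 widest peaks of each stage, which changes both list length and peak width, the share was 12.3% in mOL and 10.9% in OPC. Leaving out the 20 richest megabase bins gave 6.76% in OPC, 5.89% in iOL and 17.6% in mOL. Those bins were picked for holding the most peaks of the same list, so a lower share without them follows from the choice. Nothing about where close neighbours lay is read from it. At 5 kb the order of OPC and iOL was turned, with 6.51% in OPC, 9.07% in iOL and 14.8% in mOL. In iOL, 2.48% of the peaks found at no other stage had a neighbour within 10 kb, against 21.4% of those found at both other stages. In OPC these values were 12.3% and 15.3%, and in mOL 19.6% and 37.2%.

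**Figure D2:**
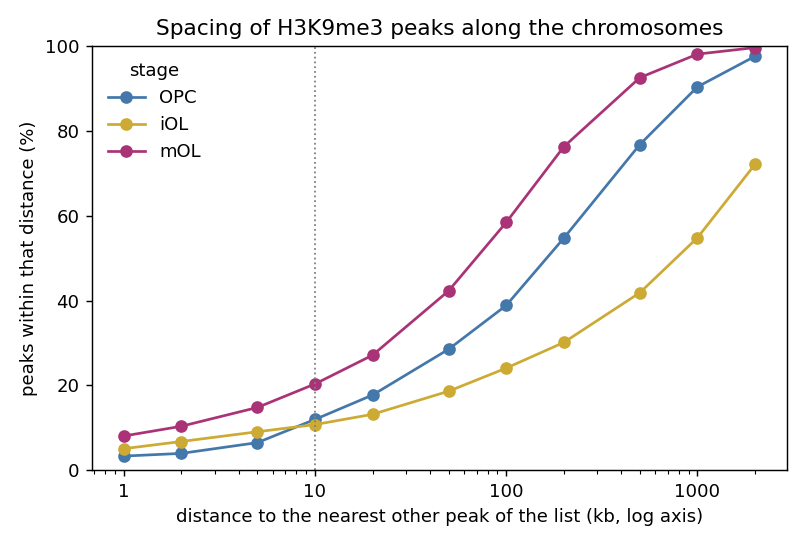
Cumulative percentage of H3K9me3 peaks (vertical axis) whose nearest other peak of the same list lay within a given distance in kb (horizontal log axis), with 1 line for each stage and a dotted line at 10 kb. At 100 kb the lines stand at 38.8% in OPC, 24.1% in iOL and 58.4% in mOL, while at 10 kb OPC and iOL lie close together.

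When H3K9me3 peaks with gaps of at most 10 kb were joined, OPC had 154 runs of 2 or more peaks, iOL 39 and mOL 610, and most were pairs (112, 32 and 485). Runs of 5 or more numbered 4, 1 and 22. The longest lay in mOL at chr18:30567042-30682467, where 35 H3K9me3 peaks followed each other over 115 kb. This stretch held 4 H3K9me3 peaks in iOL and none in OPC. It also held 4 H3K4me3 peaks in mOL and none at the earlier stages, and 1 H3K27Ac peak at each stage. The longest OPC run showed the opposite order. It lay at chr13:19162730-19231457, with 10 peaks over 68.7 kb, and this stretch had no H3K9me3 peak in iOL or mOL and no H3K4me3, H3K27Ac, Brg1 or Olig2 peak at any stage. A run on chromosome 1 was among the 3 longest in both OPC (chr1:75572145-75612858, 6 peaks) and mOL (chr1:75571974-75605481, 5 peaks). In iOL the longest run, chr1:82873886-82885949, held 6 peaks within 12.1 kb, and this stretch had 2 peaks in mOL and none in OPC.

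The chromosomes were cut into 2729 bins of 1 Mb, and each peak was placed by its midpoint, to see where the lists were densest. A bin held 1.15 H3K9me3 peaks on average in OPC, 0.303 in iOL and 2.60 in mOL. At least 1 peak was found in 55.8% of bins in OPC, 22.4% in iOL and 77.4% in mOL. The 20 richest bins held 9.75% of OPC, 13.8% of iOL and 6.04% of mOL peaks. Of the 20, 8 were shared by OPC and iOL, 5 by OPC and mOL and 11 by iOL and mOL. The low counts in iOL, where the 20th bin held 4 peaks, leave its ranking open to single peaks. In mOL the 20th bin held 14 peaks, as did the bin ranked 21, chr6:139000001-140000000. That bin was among the 20 richest in OPC, so the count shared by OPC and mOL also rests on a tie. Among the 50 richest bins the order of the pairs differed, with 18 shared by OPC and iOL, 16 by iOL and mOL and 15 by OPC and mOL.

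Of the 2729 bins, 5 were among the 20 richest at all 3 stages. The 20 are a small part of all bins, so few would be shared by position alone. That number was not computed. The bin chr1:75000001-76000000 held 36 OPC, 9 iOL and 36 mOL peaks, an equal count in OPC and mOL although the mOL list was the longer. Of its 36 OPC peaks, 19 met an mOL peak. It held no H3K4me3, H3K27Ac, Brg1 or RNAPII peak at any stage mapped, and its Olig2 peaks were 5 in mOL and none earlier. Adjacent bins on chromosome 16 held, in stage order, 19, 6 and 18 peaks (chr16:20000001-21000000) and 27, 7 and 19 peaks (chr16:21000001-22000000). The first of these also held 13, 14 and 18 H3K27Ac peaks, and the second 0, 0 and 2. The bin chr3:166000001-167000000 held 13, 7 and 23 H3K9me3 peaks. The bin chrX:129000001-130000000 held 18, 5 and 14, with no H3K4me3, H3K27Ac or Brg1 peak at any stage.

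Other bins were rich at 1 or 2 stages. The richest mOL bin was chr18:30000001-31000000, around the long run described above, with 53 H3K9me3 peaks in mOL, 5 in iOL and 3 in OPC. The bin also held 25 H3K4me3 peaks in mOL against 8 in OPC and 7 in iOL, and 29 H3K27Ac peaks against 16 and 13. The mOL lists of these marks are longer as a whole, with 17530 H3K4me3 peaks against 11758 in OPC and 35268 H3K27Ac peaks against 19130. H3K4me3 met 3 of the 53 mOL H3K9me3 peaks of the bin (5.66%), against 0.310% of the whole mOL list, and H3K27Ac met none. The first share rests on 3 peaks, which are also part of the whole list, in a bin picked for its many H3K9me3 peaks. Over all bins the mean was 6.39 mOL H3K4me3 peaks, against the 25 here. The bin chr1:74000001-75000000 held 32 H3K9me3 peaks in mOL, 2 in iOL and 7 in OPC, and no peak of any other target. The bin chr17:49000001-50000000 was rich in OPC, with 24 peaks against 1 in iOL and 3 in mOL, and apart from 1 RNAPII peak in OPC it held no other target. The richest iOL bins were chr1:60000001-61000000, with 6, 9 and 21 peaks in stage order, the shared bin on chromosome 1, and chr7:9000001-10000000, with 5, 8 and 26. The chromosome 7 bin was also dense in active marks, with 29, 32 and 45 H3K27Ac peaks. All 8 of its iOL H3K9me3 peaks met an mOL H3K9me3 peak.

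**Figure D3:**
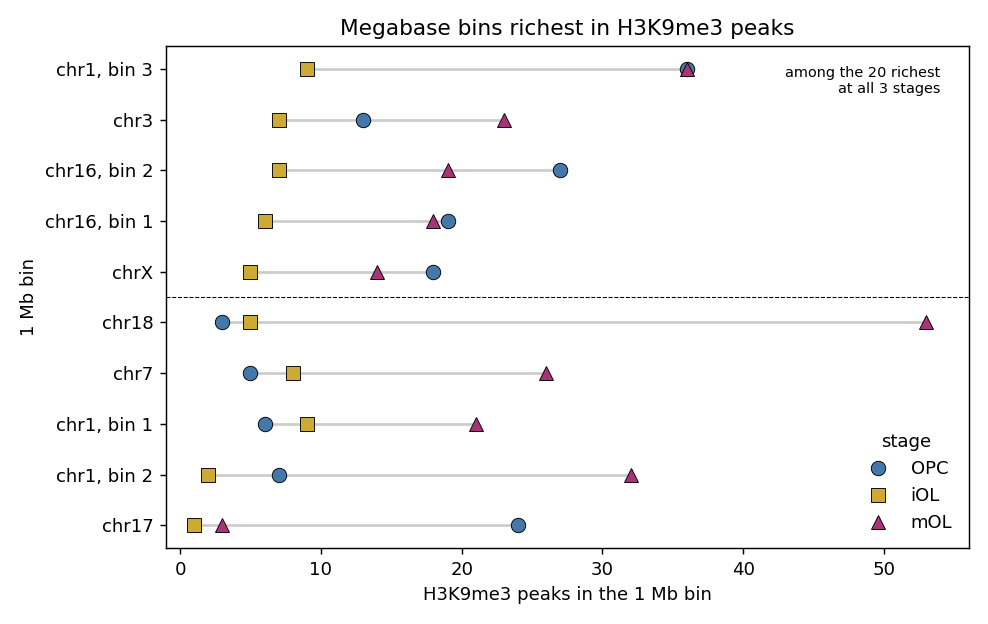
Number of H3K9me3 peaks (horizontal axis) in each 1 Mb bin (rows) that was among the 20 richest at all 3 stages (above the dashed line) or among the 3 richest of 1 stage (below it); bins of a chromosome are numbered along it. The chromosome 18 bin reaches 53 peaks in mOL against 3 in OPC, the chromosome 17 bin 24 in OPC against 3 in mOL, and bin 3 of chromosome 1 has 36 at both stages.

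The 20 richest bins held fewer H3K27Ac peaks than the genome at large in OPC and a like number later. Their median was 1.5 H3K27Ac peaks in OPC against 4 over all bins, 6 against 5 in iOL and 8 against 9 in mOL. For Olig2 the medians were 1.5 against 7 in OPC, 4 against 8 in iOL and 0 against 1 in mOL, where the means were 1 against 1.01. For H3K4me3 they were 1 against 3 in OPC, 5 against 2 in iOL and 4.5 against 4 in mOL. Within these bins the acetylated and the H3K9me3 peaks did not meet. None of the 307 OPC, 114 iOL or 429 mOL H3K9me3 peaks there met H3K27Ac of its stage, which allows shares of up to 0.977%, 2.63% and 0.699%. Elsewhere the share was 0.704% (0.430 to 1.08) for OPC, 0.701% (0.228 to 1.63) for iOL and 2.58% (2.21 to 2.99) for mOL. In iOL, 81.6% (73.2 to 88.2) of the peaks in the richest bins were found at another stage, against 46.3% (42.6 to 50.02) elsewhere. In mOL the shares were 25.2% (21.1 to 29.6) and 17.7% (16.8 to 18.6), and in OPC 30.9% (25.8 to 36.4) and 36.7% (35.0 to 38.5). Peaks in the richest bins were also wider, with medians of 1177 against 1047 bp in OPC, 823 against 645 in iOL and 995 against 940 in mOL. Of the 20 iOL bins, 11 were also among the 20 richest in mOL, which gives their peaks more to meet. Neither width nor peak density was matched.

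By chromosome, H3K9me3 was densest on chromosome 12 and sparsest on the X at every stage. Chromosome 12 held 1.69 peaks per Mb in OPC, 0.599 in iOL and 5.05 in mOL, where the median autosome held 1.22, 0.330 and 2.61. The autosomes ranged from 0.803 (chromosome 5) in OPC, 0.209 (chromosome 2) in iOL and 2.08 (chromosome 2) in mOL up to chromosome 12. The order of the 21 chromosomes was broadly kept, with Spearman's rho of 0.80 between OPC and iOL, 0.79 between OPC and mOL and 0.72 between iOL and mOL (Pearson's r 0.86, 0.79 and 0.80). These values describe the chromosomes of 3 libraries mapped to 1 build, which share their sequence content. From OPC to mOL the autosomal counts differed by factors of 1.63 (chromosome 16) to 3.12 (chromosome 18), with a median of 2.29.

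The X chromosome went the other way. OPC had 113 H3K9me3 peaks on the X, iOL 20 and mOL 99, and the mOL count was thus 0.876 times the OPC count while every autosome had more peaks in mOL. The X held 3.59% (2.97 to 4.30) of the OPC list, 2.42% (1.48 to 3.71) of the iOL list and 1.39% (1.13 to 1.69) of the mOL list. Relative to the median autosome its density was 0.578 in OPC, 0.378 in iOL and 0.236 in mOL. In stage order it was 0.394, 0.328 and 0.323 for H3K27Ac, 0.530, 0.519 and 0.548 for H3K4me3, 0.361, 0.265 and 0.293 for Olig2 and 0.109, 0.192 and 0.0696 for Brg1. For RNAPII it was 0.858 in OPC and 0.403 in iOL. H3K27Ac, Olig2 and RNAPII were thus also lower on the X after OPC, and whether H3K9me3 differed from them was not tested. Adjacent bins at chrX:129000001-131000000 held 31 of the OPC, 9 of the iOL and 24 of the mOL peaks of the X. Outside them the X held 82, 11 and 75 peaks, the same order as with them.

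**Figure D4:**
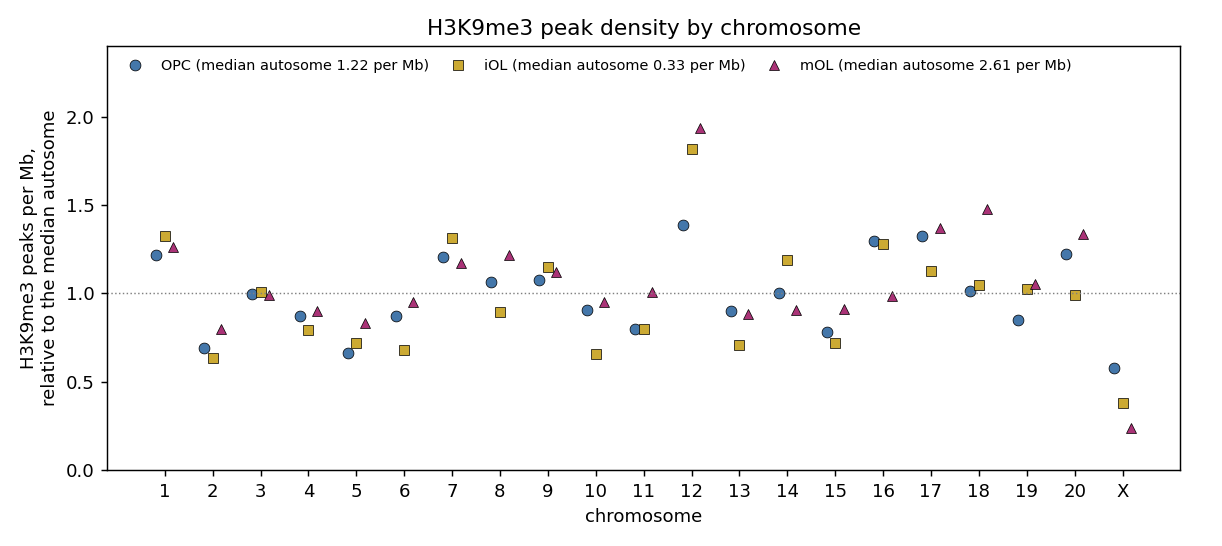
H3K9me3 peaks per Mb of each chromosome (horizontal axis) divided by the value of the median autosome of that stage (vertical axis), with 1 symbol for each stage. Chromosome 12 is highest at each stage, and the X is lowest, with 0.578 (OPC), 0.378 (iOL) and 0.236 (mOL).

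H3K9me3 was last compared with the other targets of the same stage. No peak of any other target mapped at that stage was met by 96.8% of OPC, 98.3% of iOL and 97.1% of mOL peaks. Each of the other lists covers 1.42% of the chromosomes or less, so most intervals at any place would also meet none. H3K4me3 was met by 13 of 3149 OPC peaks (0.413%, 0.220 to 0.705), 3 of 827 iOL peaks (0.363%, 0.0749 to 1.06) and 22 of 7103 mOL peaks (0.310%, 0.194 to 0.469). The H3K4me3 lists covered 0.416%, 0.383% and 0.733% of the chromosomes. Each share was below the covered length, and in mOL the whole interval was. H3K27Ac was met by 20 OPC peaks (0.635%, 0.388 to 0.979), 5 iOL peaks (0.605%, 0.197 to 1.41) and 172 mOL peaks (2.42%, 2.08 to 2.81), with 0.657%, 0.797% and 1.42% covered. A peak has width and meets a list more often than a single base does, so the covered length understates the share that position alone would give. Shares near or above it are therefore not read as a surplus. The share that position alone would give was not computed.

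The mOL overlap with H3K27Ac was the highest found for a mark. Of the 172 acetylated mOL H3K9me3 peaks, 62 (36.0%) met an iOL and 34 (19.8%) an OPC H3K27Ac peak. Of all mOL H3K27Ac peaks, 52.2% and 45.9% did. These are unlike measures, since the first shares count H3K9me3 intervals and the second count H3K27Ac intervals. No difference is read from them. Of the 172, 28 (16.3%) met an OPC H3K9me3 peak, against 15.5% of all mOL H3K9me3 peaks. The 172 had a median width of 1169 bp against 938 bp for the others, and 9 also met H3K4me3. Among the 827 widest mOL peaks the share with H3K27Ac was 5.08%, and with an overlap of 50% of the shorter peak it was 1.58%. Within 10 kb of an mOL H3K27Ac peak lay 20.9% (20.0 to 21.9) of mOL H3K9me3 peaks, where 15.3% of the chromosomes lay that close. In OPC these values were 13.5% (12.3 to 14.7) and 9.37%, and in iOL 12.5% (10.3 to 14.9) and 10.3%. For H3K4me3 they were nearly equal, at 6.32% (5.49 to 7.23) and 6.34% in OPC and 8.35% (7.72 to 9.02) and 8.53% in mOL.

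Brg1, the ATPase of the BAF remodelling complex, met few H3K9me3 peaks. The OPC list had 3 such peaks (0.0953%, 0.0197 to 0.278), the iOL list 2 (0.242%, 0.0293 to 0.871) and the mOL list 23 (0.324%, 0.205 to 0.485), with 0.0227%, 0.218% and 0.141% of the chromosomes covered. Seen from Brg1, H3K9me3 was met by 0.664% (0.137 to 1.93) of its peaks at the OPC stage, 0.0366% (0.00443 to 0.132) at the iOL stage and 0.525% (0.333 to 0.787) at the mOL stage. The H3K9me3 lists met here covered 0.142%, 0.0235% and 0.283% of the chromosomes in stage order. No difference between stages is read from these shares. Olig2, the basic helix-loop-helix factor of the lineage, met 71 OPC peaks (2.25%, 1.77 to 2.84), 6 iOL peaks (0.726%, 0.267 to 1.57) and 29 mOL peaks (0.408%, 0.274 to 0.586). Its lists covered 1.11%, 0.728% and 0.0801%. The OPC Olig2 list has wider peaks than the other Olig2 lists, with a median of 1312 bp against 720 and 764 bp, and with an overlap of 50% of the shorter peak the OPC share was 1.08%, the iOL share 0.121% and the mOL share 0.211%. With that rule Brg1 met 0.0704% of mOL and no iOL H3K9me3 peaks. RNAPII met 6 OPC peaks (0.191%, 0.0700 to 0.414) and 1 iOL peak (0.121%, 0.00306 to 0.672). Its lists covered 0.0133% and 0.0586%.

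**Figure D5:**
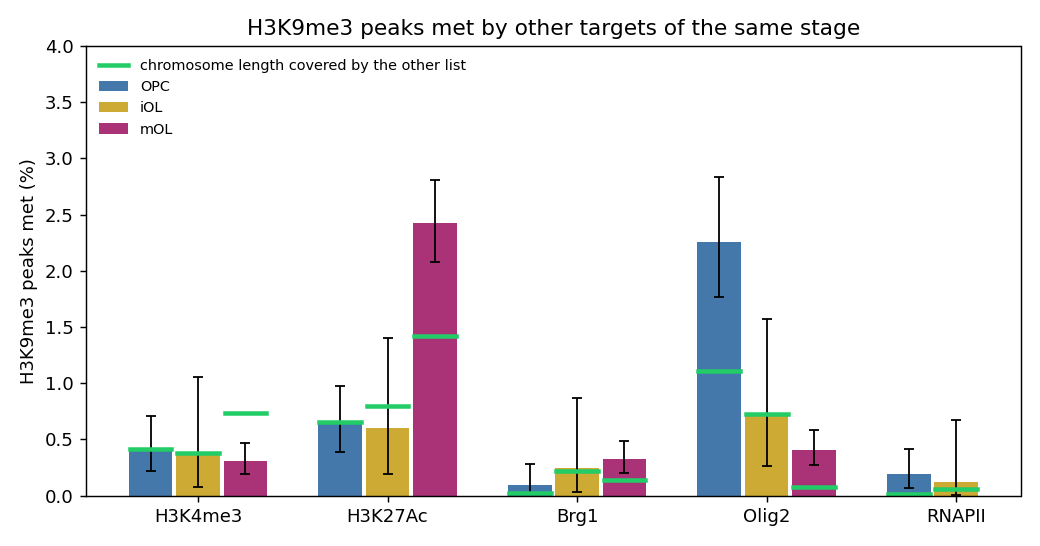
Percentage of H3K9me3 peaks that met a peak of H3K4me3, H3K27Ac, Brg1, Olig2 or RNAPII of the same stage (bars, with 95% binomial intervals), beside the percentage of chromosome length covered by that other list (green lines). RNAPII was mapped in OPC and iOL. Peaks have width, so the green lines lie below the share that position alone would give. The tallest bars are H3K27Ac in mOL at 2.42% and Olig2 in OPC at 2.25%, and all other bars are below 1%.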

How the data were processed

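ChIP-seq peak lists of 17 libraries were used, 3 of them for H3K9me3, with 1 library for each target and stage; samples were assigned from their titles. The submitters' processing notes name MACS 1.4.0 and rn4, and no aligner, threshold or control library is stated in the sources used here. Each file as deposited by the authors held chromosome, start and end in bp, with no score. Starts were made 1-based by adding 1. Overlap meant at least 1 bp; distances are between peak edges. Chromosome length was the largest peak end over the 17 lists, 2716 Mb in all. Intervals are exact Clopper-Pearson 95% intervals, and a count of 0 allows 3 counts. Richest bins were ranked by peak number, then covered length. Regions named were, for each stage, the 3 richest bins, longest runs and widest peaks, and the bins among the 20 richest at all stages. The peak lists, regions and measures were chosen with earlier results of these data known. Alternatives were other overlap rules, distances, bins and lists of equal number; leaving out the 20 richest bins was added after seeing the data. Overlap counts were tested on simulated lists and checked against bedtools 2.31.1 (6 of 6 pairs equal). Python 3.11.15, numpy 2.4.6, pandas 2.3.3, scipy 1.17.1 and matplotlib 3.10.9 were used.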

Additional observations from a re-analysis of the deposited data

How the results depend on the processing

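Of 112 recalculated values over 36 results, 71 stayed within 1.5 times the count, or within the 95% interval of the share or width. Counts among the 50 richest bins were set against those among the 20 richest without scaling, so their part in this tally carries no weight. Numbers and widths of H3K9me3 peaks were the same without unplaced sequence and with touching peaks joined, since the lists hold neither. Shares with a neighbour and shares met between stages likewise could not change without unplaced sequence. All these repeats count among the 71, so the tally overstates how many values held under a real change. The share with a neighbour was 6.51%, 9.07% and 14.8% in OPC, iOL and mOL at 5 kb, which puts iOL above OPC, and 28.5%, 18.6% and 42.3% at 50 kb. Without the 20 richest bins it was 6.76%, 5.89% and 17.6%, and with the 827 widest peaks 12.3% in mOL. With these lists, equal in number but not in width, the shares met between stages were 14.5% (OPC by iOL), 29.3% (OPC by mOL), 16.1% (iOL by OPC), 19.7% (iOL by mOL), 29.6% (mOL by OPC) and 16.8% (mOL by iOL). Within 1000 bp, 16.9% of mOL peaks met OPC and 5.69% met iOL. Without the richest bins, 24.3% of iOL peaks met OPC and 40.8% met mOL. Among the 50 richest bins, OPC and iOL shared 18, iOL and mOL 16, OPC and mOL 15, and all 3 stages 8, so OPC and iOL shared most, and with bins of 2 Mb these 2 pairs with iOL tied at 8. Without chromosome length, the fullest chromosome held 6.49 times the peaks of the emptiest in OPC. With an overlap of 50% of the shorter peak, H3K27Ac met 0.381% of OPC and 1.58% of mOL peaks, H3K4me3 0.169% of mOL, Olig2 1.08% of OPC, 0.121% of iOL and 0.211% of mOL, and Brg1 0 of iOL and 0.0704% of mOL. With targets of any stage, H3K27Ac met 2.22% of OPC and 1.57% of iOL peaks, Olig2 3.56%, 3.14% and 2.51% of OPC, iOL and mOL, Brg1 0.508% of OPC and 0.591% of mOL, and RNAPII 0.572% of OPC. Of the 827 widest mOL peaks, H3K4me3 met 0.484% and H3K27Ac 5.08%. The causes of these shifts were not tested. Depth is unknown and limits every comparison of list length. No paired analysis was possible because each stage had 1 library.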

Other observations

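Olig2 peaks that coincided with H3K9me3 stood apart from other Olig2 peaks in mOL. Of the 2759 mOL Olig2 peaks, 54 met H3K9me3 of any stage. Olig2 of another stage was called at 22 of these 54 (40.7%, 27.6 to 55.0), against 95.2% (94.4 to 96.0) of the 2705 without H3K9me3. H3K27Ac of mOL was present at 7 of the 54 (13.0%, 5.37 to 24.9) and at 41.3% (39.4 to 43.1) of the rest. The H3K9me3 peaks concerned were more often those of OPC (38 of the 54 Olig2 peaks) than of mOL (29) or iOL (10). In the bins chr1:75000001-76000000 and chrX:129000001-130000000, which were rich in H3K9me3 at every stage, mOL had 5 Olig2 peaks each, where OPC had 0 and 1 and iOL none. The other 3 bins rich at every stage held 2, 4 and 0 Olig2 peaks in stage order at chr16:20000001-21000000, 2, 0 and 2 at chr16:21000001-22000000, and 2, 2 and 0 at chr3:166000001-167000000. The earlier stages showed no such contrast: of 177 OPC Olig2 peaks with H3K9me3, 74.0% (66.9 to 80.3) had Olig2 at another stage, as had 71.8% (71.2 to 72.4) of those without, and in iOL 71 of the 120 with H3K9me3 (59.2%, 49.8 to 68.0) and 61.9% (61.3 to 62.5) of the others had it. The difference between stages was not tested.

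A few H3K9me3 peaks met many of the 14 lists of other targets. Peaks that met 5 or more numbered 12 in OPC, 1 in iOL and 26 in mOL, and the highest number was 9, at chr8:6053129-6054134 in mOL. None of the 14 was met by 94.0% of OPC and 95.4% of iOL peaks and 95.5% of mOL peaks. Each of the 14 covers 1.42% of the chromosomes or less, so most intervals at any place would also meet none.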
